A study of Cricetulus griseus with 24 samples.

Results

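The Myc, Max and Mxd network was followed in Chinese hamster ovary (CHO) cells as the RNA counts of 10 genes, Myc, Mycn, Max, Mxd1, Mxd3, Mxd4, Mxi1, Mnt, Mlx and Mlxip. The members were the rows of the count table that carry one of these symbols, and 10 of its 28037 genes were found. For 9 of them the table gives the symbol itself. Myc stands in the table under a number, LOC100773301, and was matched by its gene ID 100773301, to which the RefSeq gene table of assembly CriGri-PICRH-1.0 gives the symbol Myc. Mycn had 0 counts in every library, so 9 members could be tested.

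Myc is a transcription factor that drives ribosome production, nucleotide synthesis and entry into the cell cycle, and growth factors raise it in dividing cells. It binds E-box DNA only as a pair with Max. The Mxd proteins (Mxd1, Mxd3, Mxd4 and Mxi1, also called Mxd2) and Mnt pair with the same Max and recruit corepressors of the Sin3 type to the same sites, and Mxd genes are known for rising when cells leave the cycle. Mlx is another hub that pairs with some Mxd proteins, with Mnt and with the glucose-sensing factors of the Mondo family, of which Mlxip (MondoA) is one.

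A0 is an antibody-producing CHO DG44 line, made by co-transfecting a plasmid for the antibody heavy chain and another for the light chain and neomycin resistance. A1 is its progeny after stepwise amplification with methotrexate, so A0 and A1 share host, transgenes and neomycin selection. CHO-S is a different CHO line that makes no antibody and served as the control. The titles of its samples carry the tag NDST, which the sources used here do not explain, so whether these cells differ from plain CHO-S cannot be told. Each was sampled at exponential and at stationary phase of suspension batch culture, and A0 and A1 are 1 line each, so a difference between them is one between these lines. There were 4 A0, 3 A1 and 3 CHO-S cultures at each phase, in 24 libraries, and the 8 exponential A0 libraries were summed by culture number to 4 cultures. The second library is marked RLT for cultures 1 and 2 and Duplicate for cultures 3 and 4, marks that the sources used here do not explain. The sources used here describe triplicate cultures but not how the 4 A0 numbers arose, so the p-values refer to the spread between the numbered samples. The test estimates that spread partly from other genes, so very small p-values from few cultures do not rest on those cultures alone.

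Levels are given in CPM, counts per library scaled to a common total after TMM normalisation over the 20 cultures. The libraries held 6532373 to 14652646 counts on genes, apart from CHO-S stationary culture 1 with 1038026. That library stood apart: 32.8% of its reads fell outside genes, against 11.9% to 18.4% in the others, and over 10588 genes its correlation with the rest of its group averaged 0.886, against 0.941 and 0.942 for the other stationary CHO-S cultures and 0.997 for the exponential ones. The averages of the other stationary CHO-S cultures include their correlation with culture 1. They therefore do not show how alike those other cultures are. Differences and responses that use stationary CHO-S are therefore given with and without it. Vim, a mesenchymal gene of CHO cells, stood at 727.5 CPM or more in every culture, whereas the leukocyte gene Ptprc did not exceed 0.171 CPM. Vim was itself among the genes that fell in A0 at stationary phase. The epithelial gene Epcam and the endothelial gene Pecam1 were listed for the same check and are not described here. Of 10 cell cycle genes, 9 fell at stationary phase in A0, 9 in A1 and 6 in CHO-S, or 10 in CHO-S without stationary culture 1. Of all genes tested, 20.1% fell in A0, 17.8% in A1 and 6.48% in CHO-S, or 24.7% in CHO-S without that culture.

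Myc rose at stationary phase in both antibody-producing lines. In A0 it stood at 124, 119, 103 and 92.4 CPM in exponential cultures 1 to 4, and at 228, 186, 221 and 239 CPM in stationary cultures 1 to 4. No stationary A0 culture overlapped an exponential one, and the log2 fold change, stationary minus exponential, was 0.98 (SE 0.11, 95% CI 0.74 to 1.22, adjusted p = 4.26e-06). Adjusted p-values come from edgeR's quasi-likelihood test over all genes tested, with a threshold of 0.05. In A1 the exponential cultures held 157, 179.5 and 138 CPM of Myc, and the stationary ones 242, 244.5 and 273 CPM. The A1 groups did not overlap either, and the log2 fold change was 0.70 (SE 0.071, adjusted p = 2.79e-09). Within A0, the response was 0.76 on the log2 scale in cultures 1 and 2 alone and 1.24 in cultures 3 and 4 alone, and it passed the test in both.

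In CHO-S the Myc values depended on 1 library. The exponential cultures held 81.2, 91.8 and 86.7 CPM, and the stationary ones 34.1, 106 and 104 CPM, of which the lowest was stationary culture 1 with 33 counts of Myc. With all cultures the log2 fold change was -0.032 (SE 0.34, 95% CI -0.83 to 0.76, adjusted p = 0.959). Without stationary culture 1 it was 0.28 (SE 0.056, adjusted p = 1.13e-05), a rise with 2 stationary against 3 exponential cultures that do not overlap.

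**Figure D1:**
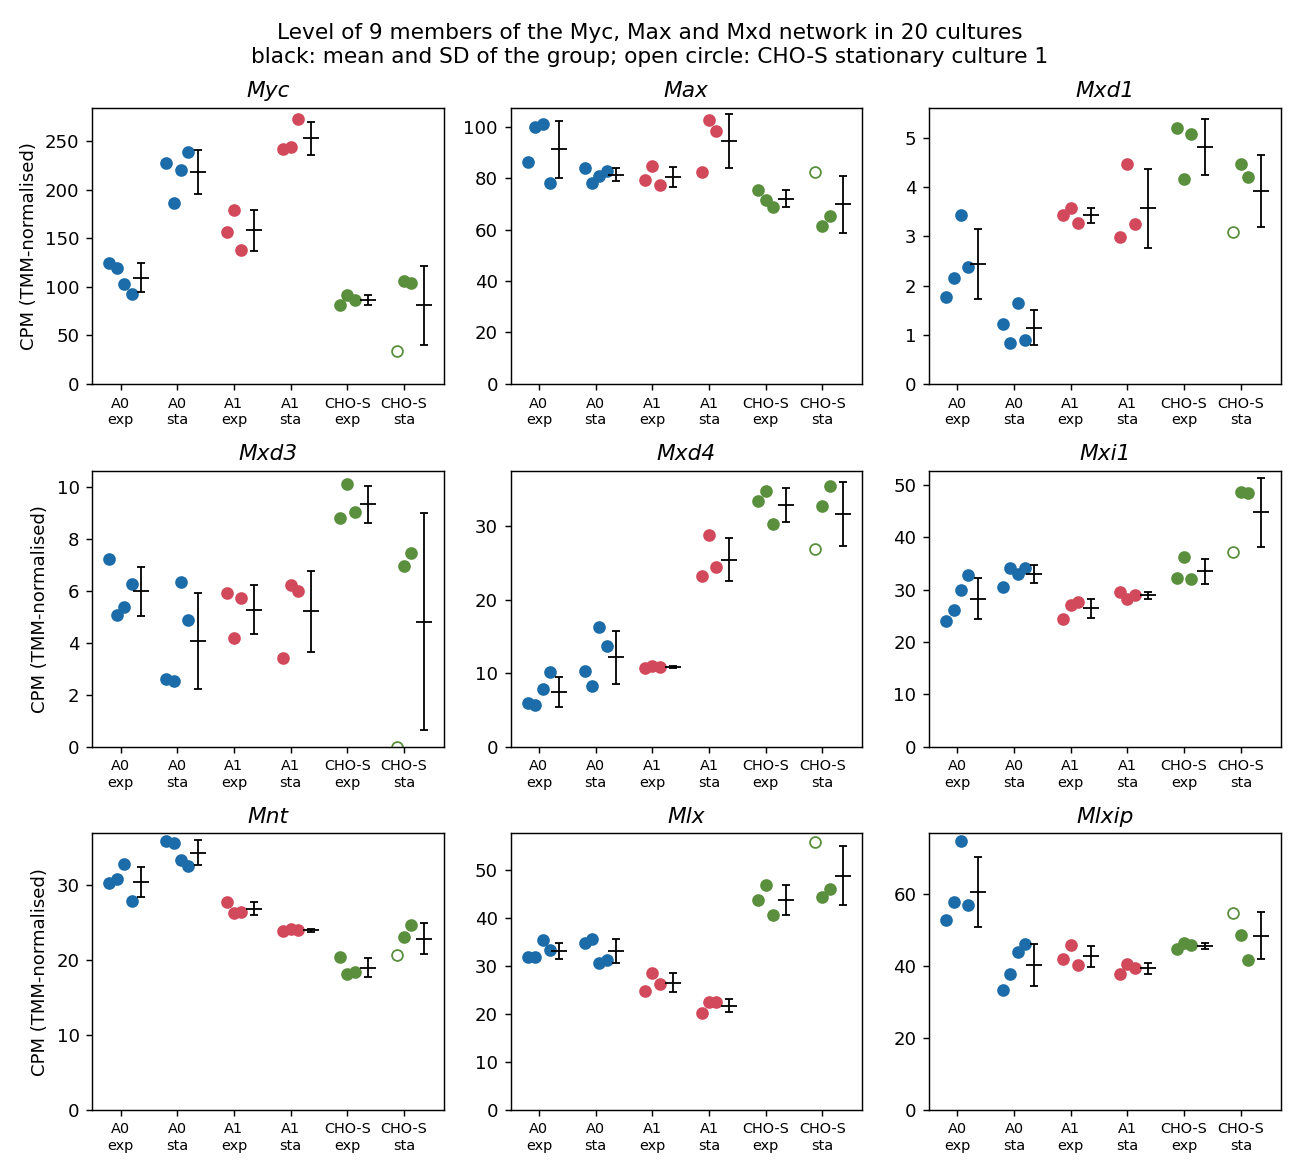
Level of 9 network members in each of the 20 cultures, 1 panel a gene, in TMM-normalised CPM on a linear axis that starts at 0, for A0, A1 and CHO-S at exponential (exp) and stationary (sta) phase. Points are cultures, black marks the mean and SD of a group, and the open circle is CHO-S stationary culture 1. Myc lies between 186 and 273 CPM in every stationary A0 and A1 culture and at 179.5 CPM or less in all others, and Mxd4 is between 23.2 and 28.7 CPM in stationary A1 against 10.7 to 10.9 CPM in exponential A1.

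Max, the shared partner without which Myc cannot bind its sites, moved little. Its 20 cultures lay between 61.5 and 103 CPM. In A1 it averaged 80.5 CPM ± 3.97 (SD, n = 3) at exponential and 94.5 CPM ± 10.7 (SD, n = 3) at stationary phase, a rise of 0.26 on the log2 scale (SE 0.071, adjusted p = 0.0046) in groups that overlap. Without A1 culture 3 the value was 0.20 and missed the threshold (adjusted p = 0.185). Here and below, a culture left out by number alone was left out at both phases where the fit held both. In A0 the change in Max was -0.18 (95% CI -0.39 to 0.032, adjusted p = 0.182). In CHO-S it was -0.064 (adjusted p = 0.824), and without stationary culture 1 it was -0.19, a fall (adjusted p = 0.00855).

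Mxd1, the founding Max partner that antagonises Myc, fell at stationary phase in A0. It was a low-count gene, at 1.77, 2.16, 3.44 and 2.38 CPM in the exponential and 1.21, 0.840, 1.64 and 0.899 CPM in the stationary A0 cultures. These stationary values rest on 10 to 21 counts a culture. All 4 stationary A0 cultures lay below all 4 exponential ones, with a log2 fold change of -1.09 (SE 0.29, adjusted p = 0.00634), and with cultures 3 and 4 alone it was -1.20 and missed the threshold (adjusted p = 0.0587). In A1, Mxd1 read 3.44, 3.58 and 3.28 CPM at exponential and 2.99, 4.48 and 3.25 CPM at stationary phase. Those A1 groups overlap, and the change was 0.11 (95% CI -0.32 to 0.54, adjusted p = 0.75). The CHO-S change was -0.18 (adjusted p = 0.552), or -0.15 without stationary culture 1 (adjusted p = 0.577).

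Mxd4, another Mxd repressor, rose in A0 and in A1. Its A0 cultures 1 to 4 held 6.004, 5.67, 7.87 and 10.2 CPM at exponential and 10.2, 8.32, 16.3 and 13.7 CPM at stationary phase. The groups overlap, since exponential culture 4 lay above stationary culture 2, but within each culture number the stationary value was the higher one. The log2 fold change in A0 was 0.70 (SE 0.21, adjusted p = 0.016), and it missed the threshold without A0 culture 1 (0.69, adjusted p = 0.053) or culture 3 (0.56, adjusted p = 0.113). In A1, Mxd4 went from 10.7, 10.9 and 10.9 CPM to 23.2, 28.7 and 24.4 CPM, with no overlap. That was a log2 fold change of 1.26 (SE 0.11, adjusted p = 1.51e-10). In CHO-S it was at 30.3 to 34.8 CPM at exponential and 26.8 to 35.4 CPM at stationary phase, with a change of -0.0069 (adjusted p = 0.975), or 0.044 without stationary culture 1 (adjusted p = 0.714).

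Mxd3, the Mxd protein known for being expressed in cycling cells, split the A0 cultures at stationary phase. Cultures 1 and 2 held 2.61 and 2.52 CPM, and cultures 3 and 4 held 6.31 and 4.87 CPM, against 5.07 to 7.20 CPM in the 4 exponential cultures. The A0 change was -0.55 (SE 0.25, adjusted p = 0.0971) without pairing. The A0 culture numbers were taken to pair the phases because same-numbered samples deviated together in these counts, although numbers 3 and 4 each matched the other best. With a replicate block by these numbers the change was -0.58 and passed the test (adjusted p = 0.00138), so the call depends on that pairing. In A1 the change in Mxd3 was 0.055 (95% CI -0.35 to 0.46, adjusted p = 0.884). CHO-S stationary culture 1 had 0 counts of Mxd3, which allows up to 3 counts or 3.10 CPM (counting error only). The CHO-S change was -0.47 (adjusted p = 0.288), and without that culture -0.37, a fall (adjusted p = 0.0292).

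Mxi1, which pairs with Max like the other Mxd proteins, averaged 28.3 CPM ± 3.89 (SD, n = 4) in exponential and 33.0 CPM ± 1.73 (SD, n = 4) in stationary A0. The A0 change was 0.21 (95% CI -0.027 to 0.45, adjusted p = 0.158), and the A1 change was 0.15 (adjusted p = 0.226). In CHO-S the exponential cultures had 32.2, 36.3 and 32.1 CPM of Mxi1 and the stationary ones 37.2, 48.7 and 48.5 CPM. These groups do not overlap, and the log2 fold change was 0.46 (SE 0.14, adjusted p = 0.0741). Without stationary culture 1 it was 0.54, a rise (SE 0.075, adjusted p = 1.27e-09). With all cultures kept, the Mxi1 rise in CHO-S passed by DESeq2 (0.50, adjusted p = 0.0129). It also passed in an edgeR fit of all 6 groups (0.48, adjusted p = 0.00752).

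Mnt, the Max partner that most cells express whether cycling or not, changed by 0.16 in A0 (95% CI -0.045 to 0.37, adjusted p = 0.217). In A1 it read 27.7, 26.2 and 26.4 CPM at exponential and 23.8, 24.1 and 23.9 CPM at stationary phase. The A1 groups do not overlap, but the change of -0.14 missed the threshold (SE 0.091, adjusted p = 0.249). In CHO-S the change was 0.30 (adjusted p = 0.111), and without stationary culture 1 it was 0.32, a rise (adjusted p = 0.00336).

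Mlxip, the Mondo protein that carries the glucose signal to Mlx, fell in A0. It went from 52.7, 57.7, 74.7 and 57.0 CPM in exponential cultures 1 to 4 to 33.3, 37.7, 43.8 and 46.0 CPM in stationary ones. The groups do not overlap, and the log2 fold change was -0.60 (SE 0.13, adjusted p = 0.00133). In A1 it was -0.094 (95% CI -0.25 to 0.066, adjusted p = 0.396), over cultures at 37.7 to 45.8 CPM. In CHO-S it was 0.062 (adjusted p = 0.822), or 0.011 without stationary culture 1 (adjusted p = 0.926).

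Mlx, the partner of Mlxip, stood at 31.9, 31.7, 35.3 and 33.3 CPM in exponential and 34.7, 35.6, 30.6 and 31.2 CPM in stationary A0. The A0 change was -0.013 (95% CI -0.22 to 0.20, adjusted p = 0.939). In A1 it went from 24.6, 28.5 and 26.2 CPM to 20.05, 22.4 and 22.4 CPM. This was a fall of 0.26 on the log2 scale (SE 0.096, adjusted p = 0.0332), with no overlap. It missed the threshold without any 1 of the 3 A1 culture numbers (adjusted p from 0.084 to 0.165) and with DESeq2 (adjusted p = 0.0927). In CHO-S the change was 0.13 (adjusted p = 0.596), or 0.050 without stationary culture 1 (adjusted p = 0.625).

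**Figure D2:**
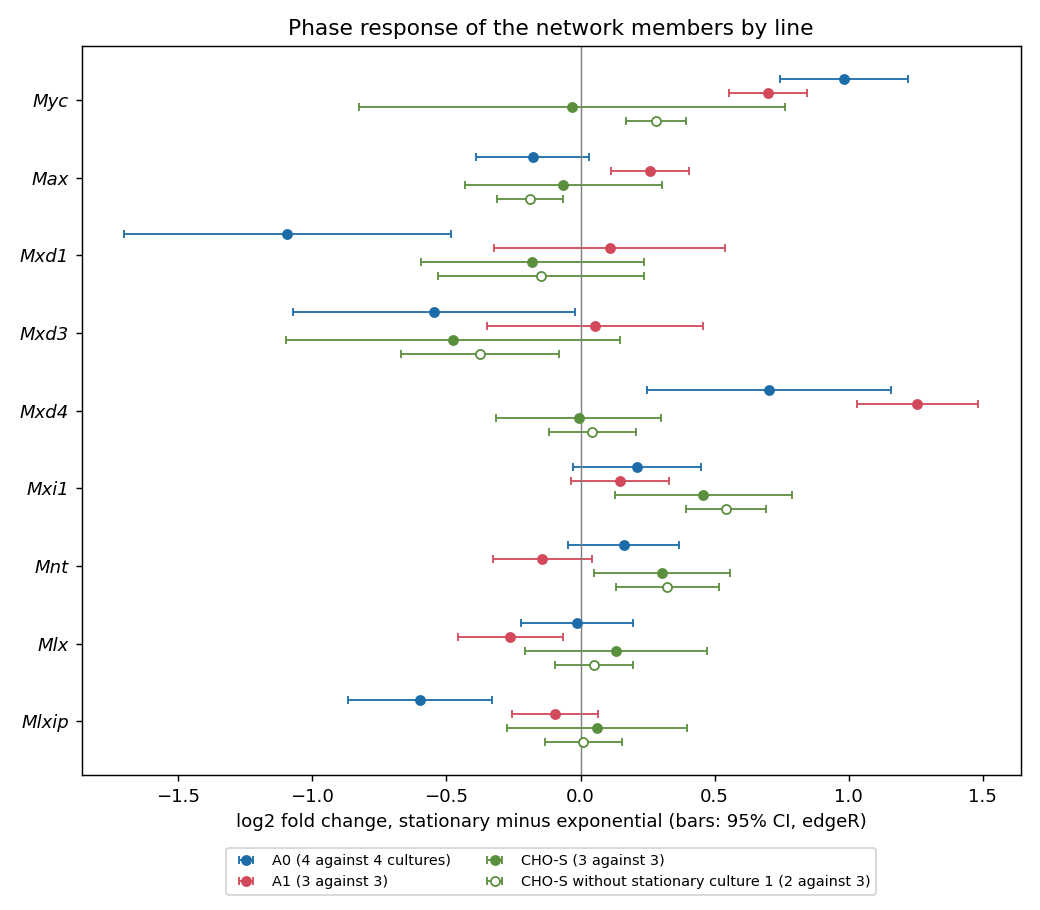
Phase response of 9 network members as log2 fold change, stationary minus exponential, with 95% confidence intervals from edgeR, for A0, A1, CHO-S and CHO-S without stationary culture 1 (open circles). The Myc points of A0 and A1 lie at 0.98 and 0.70, Mxd1 lies at -1.09 in A0 and 0.11 in A1, and the CHO-S intervals are wide until stationary culture 1 is left out.

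By count, 2 of the 9 members tested rose and 2 fell in A0, where 17.7% of the 20267 genes tested rose and 20.1% fell, or 37.7% in all. In A1, 3 rose and 1 fell, against 15.6% and 17.8% of 18548 genes, or 33.4% in all. In CHO-S none of the 9 passed the edgeR test on the CHO-S groups alone. There 2 had an unadjusted p under 0.05, and 1 (Mxi1) was past the threshold by DESeq2. Among all genes 6.81% were higher and 6.48% lower, or 13.3% in all. Without CHO-S stationary culture 1, 3 rose (Myc, Mxi1 and Mnt) and 2 fell (Max and Mxd3), against 23.1% and 24.7%, or 47.7% of 17319 genes in all. The share of members called was near the share of all genes in A0, at 4 of 9, and in A1, at 4 of 9. Median log2 fold changes of the members were -0.013 in A0, 0.109 in A1 and 0.0442 in CHO-S without stationary culture 1, beside 0.00131, 0.0321 and 0.0028 over all genes tested.

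The amplified line A1 was compared with its parent A0 at each phase, since the study asked what amplification changes in the same clone's descent. At exponential phase Myc was higher in A1, at 138 to 179.5 CPM against 92.4 to 124 CPM, a log2 difference of 0.53 (SE 0.12, adjusted p = 0.00367). At stationary phase its log2 difference was 0.20 (SE 0.085, adjusted p = 0.0805). The stationary A1 cultures, from 242 CPM, still lay above the A0 cultures, up to 239 CPM, so the groups do not overlap although the test was missed.

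Among the Mxd genes, Mxd4 was higher in A1 at both phases. The log2 difference, A1 minus A0, was 0.55 at exponential phase (SE 0.18, adjusted p = 0.0398) and 1.05 at stationary phase (SE 0.18, adjusted p = 0.000398). The exponential call was lost when any 1 culture was left out other than A0 culture 4 (adjusted p from 0.0698 to 0.133), and the difference was 0.26 against A0 cultures 3 and 4 alone (adjusted p = 0.245). Mxd1 was higher in stationary A1, at 2.99 to 4.48 CPM against 0.840 to 1.64 CPM, a log2 difference of 1.64 (SE 0.28, adjusted p = 4e-04). Its exponential difference was 0.49 (95% CI -0.0022 to 0.99, adjusted p = 0.14). Mxd3 differed by -0.18 at exponential phase (adjusted p = 0.512) and by 0.36 at stationary phase (adjusted p = 0.388), and Mxi1 by -0.098 (adjusted p = 0.584) and -0.20 (adjusted p = 0.103).

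Mnt and Mlx were lower in stationary A1. Mnt stood at 23.8 to 24.1 CPM in A1 and 32.4 to 35.7 CPM in A0, a log2 difference of -0.53 (SE 0.090, adjusted p = 0.000422). For Mlx the difference was -0.62 (SE 0.10, adjusted p = 0.000281), with A1 at 20.05 to 22.4 CPM and A0 at 30.6 to 35.6 CPM. Mlx was lower in exponential A1 as well, by -0.32 (SE 0.098, adjusted p = 0.0242), a call lost without A1 culture 1 (adjusted p = 0.129) or culture 3 (adjusted p = 0.0914). Mlxip was lower in exponential A1, with 40.2 to 45.8 CPM against 52.7 to 74.7 CPM in A0, a log2 difference of -0.51 (SE 0.12, adjusted p = 0.00489). At stationary phase, where A0 had fallen, the Mlxip difference was -0.046 (95% CI -0.28 to 0.19, adjusted p = 0.798). The Max differences were -0.18 (adjusted p = 0.218) and 0.21 (adjusted p = 0.0647), and its groups overlap at both phases.

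**Figure D3:**
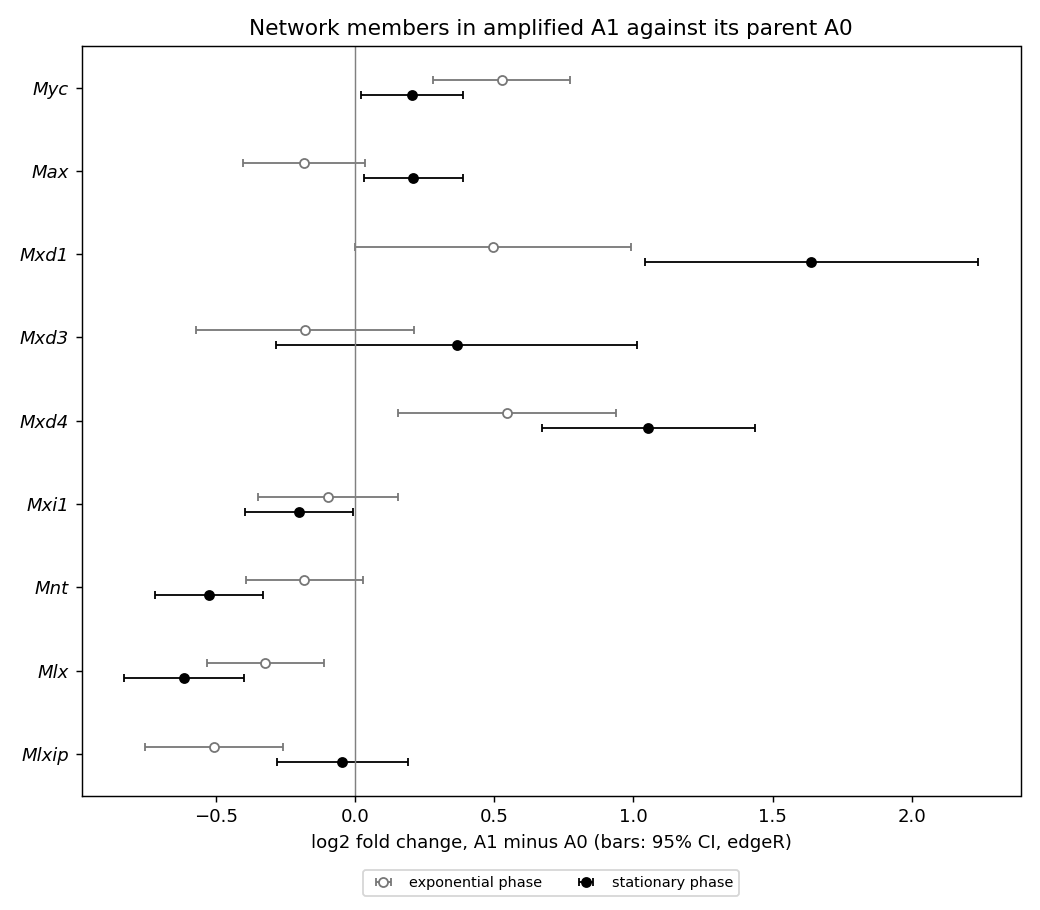
Log2 difference of 9 network members between A1 and A0, A1 minus A0, with 95% confidence intervals from edgeR, at exponential phase (open) and stationary phase (filled). Mxd1 and Mxd4 lie furthest to the right at stationary phase, at 1.64 and 1.05, and Mlx lies left of 0 at both phases.

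At exponential phase 4 of the 9 members differed between A1 and A0 (Myc, Mxd4, Mlx and Mlxip), where 25.9% of the 19946 genes tested did. At stationary phase 4 differed (Mxd1, Mxd4, Mnt and Mlx), where 33.7% of 19293 genes did. These comparisons use the same cultures as the phase responses, so their values are not independent of those above.

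Whether the phase responses themselves differed between lines was tested with interaction terms over all 6 groups. Between A1 and A0 none of the 9 members passed the edgeR test, with 4 at an unadjusted p under 0.05 and 1 past the threshold by DESeq2, where 4.56% of 21358 genes were called. The largest difference was that of Mxd1, 1.16 on the log2 scale (SE 0.35, 95% CI 0.44 to 1.88, adjusted p = 0.0568). The fit shares its estimate of spread with CHO-S, and without CHO-S stationary culture 1 both Mxd1 (1.15, adjusted p = 0.0274) and Max (0.39, adjusted p = 0.0369) passed, among 11.6% of genes. With a replicate block Mxd1 passed as well (1.15, adjusted p = 0.0263). That block pairs same-numbered samples across phases in every line, although the numbers of A1 and CHO-S were not taken to be pairs. The Myc responses of A1 and A0 differed by -0.32 (95% CI -0.85 to 0.21, adjusted p = 0.59), with an adjusted p of 0.151 without CHO-S stationary culture 1.

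Between A0 and CHO-S, the Myc response was larger in A0 by 0.97 (SE 0.27, adjusted p = 0.0129), and by 0.73 without CHO-S stationary culture 1 (SE 0.15, adjusted p = 0.00086). The Mlxip response was more negative in A0, by -0.63 (SE 0.18, adjusted p = 0.0183), or -0.57 without that culture (adjusted p = 0.012). The Mxd4 difference of 0.72 missed the threshold (adjusted p = 0.068), also without that culture (0.68, adjusted p = 0.0563). It passed with the same replicate block over every line (0.71, adjusted p = 0.0131). Of all genes, 14.7% were called, or 19.4% without the culture. Between A1 and CHO-S, the Mxd4 response was larger in A1 by 1.23 (SE 0.28, adjusted p = 0.00834), and by 1.18 without the culture (adjusted p = 0.00309), where 5.49% and 10.8% of genes were called. Mnt then passed as well, with a more negative response in A1 by -0.49 (adjusted p = 0.0272). With all cultures the Mnt difference was -0.47 and missed the edgeR threshold (adjusted p = 0.0858). By DESeq2 it passed with all cultures (-0.50, adjusted p = 0.0158). For Myc the A1 minus CHO-S difference was 0.66 (adjusted p = 0.209), or 0.40 without the culture (adjusted p = 0.121).

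Against CHO-S, the producing lines held more Myc and less of most Mxd genes at exponential phase. Myc was higher in A0 by 0.35 (SE 0.11, adjusted p = 0.0131) and in A1 by 0.86 (SE 0.069, adjusted p = 1.61e-10). The A0 difference was lost without CHO-S culture 1 (0.30, adjusted p = 0.0861) or culture 3 (0.34, adjusted p = 0.0551), and against A0 cultures 3 and 4 alone it was 0.17 (adjusted p = 0.102). Over all genes tested the median A0 minus CHO-S difference was 0.144, and without stationary CHO-S culture 1 it was 0.126 at stationary phase. Mxd4 was lower by -2.13 in A0 (SE 0.17, adjusted p = 8.99e-08) and by -1.60 in A1 (SE 0.090, adjusted p = 2.67e-13), with 30.3 to 34.8 CPM in CHO-S, 5.67 to 10.2 CPM in A0 and 10.7 to 10.9 CPM in A1. Mxd1 was lower by -0.98 in A0 (adjusted p = 0.00193) and by -0.50 in A1 (adjusted p = 0.0167), and Mxd3 by -0.63 (adjusted p = 0.00318) and -0.82 (adjusted p = 3.85e-05). The Mxd1 difference of A1 missed the threshold by DESeq2 (adjusted p = 0.0917). Mxi1 was lower in A1 by -0.35 (adjusted p = 0.00053) and stood at -0.23 in A0 (adjusted p = 0.105).

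Mnt was the one repressor that was higher in the producing lines at exponential phase, by 0.69 in A0 (SE 0.10, adjusted p = 5.19e-05) and 0.49 in A1 (SE 0.083, adjusted p = 1.9e-05), with 18.04 to 20.4 CPM in exponential CHO-S. Mlx was lower, by -0.39 in A0 (adjusted p = 0.00253) and -0.73 in A1 (adjusted p = 1.51e-08). Max was higher by 0.36 in A0 (adjusted p = 0.00957) and by 0.15 in A1 (adjusted p = 0.0233), and the A1 value missed the threshold by DESeq2 (adjusted p = 0.0616). Mlxip was higher in A0 by 0.42 (adjusted p = 0.00662) and stood at -0.10 in A1 (adjusted p = 0.188). In A0, 4 members were higher and 4 lower, where 27.6% of all genes were higher and 21.9% lower, or 49.5% in all. In A1, 3 were higher and 5 lower, where 30.0% and 27.1% were, or 57.2% in all.

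At stationary phase the Myc gap to CHO-S was 1.35 for A0 (SE 0.30, adjusted p = 0.00494) and 1.57 for A1 (SE 0.34, adjusted p = 0.0084). Without CHO-S stationary culture 1 these were 1.08 (SE 0.10, adjusted p = 3.37e-06) and 1.25 (SE 0.072, adjusted p = 2.13e-28). Mxd4 was lower by -1.44 in A0 (adjusted p = 0.000527), or by -1.46 without the culture (adjusted p = 6.8e-05), and in A1 it stood at -0.37 (adjusted p = 0.105), or at -0.43, lower, without the culture (adjusted p = 0.000323). Mlx was lower in both, by -0.55 in A0 (adjusted p = 0.0145) and -1.16 in A1 (adjusted p = 0.00083), and without the culture by -0.44 (adjusted p = 0.00339) and -1.08 (adjusted p = 2.41e-16). Mxd1 was lower in A0 by -1.88 (adjusted p = 0.000621), or by -1.90 without the culture (adjusted p = 0.000178). In A1 it stood at -0.24 (adjusted p = 0.467), or at -0.28 without the culture (adjusted p = 0.302).

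Mnt was still higher in stationary A0, by 0.54 (adjusted p = 0.0114), or by 0.54 without the culture (adjusted p = 0.000979). In stationary A1 its difference from CHO-S was 0.023 (adjusted p = 0.909), or -0.015 without the culture (adjusted p = 0.916). Mxi1 was lower in both lines, by -0.49 in A0 (adjusted p = 0.0204) and by -0.68 in A1 (adjusted p = 0.00922), and without the culture by -0.54 (adjusted p = 0.000511) and -0.78 (adjusted p = 1.38e-11). With other settings or other cultures left out, the A0 call of Mxi1 was lost in 7 of 16 recalculations (adjusted p up to 0.178). For A1 the Mxi1 call was lost in 3 of 12 (adjusted p up to 0.0635). Max stood at 0.23 in A0 (adjusted p = 0.254) and 0.44 in A1 (adjusted p = 0.0905), and without the culture it was higher, by 0.38 (adjusted p = 0.00216) and 0.56 (adjusted p = 2.2e-09). Mlxip stood at -0.26 in A0 (adjusted p = 0.246) and -0.29 in A1 (adjusted p = 0.185), and without the culture at -0.15 in A0 (adjusted p = 0.367) and lower in A1, by -0.24 (adjusted p = 0.0228). Mxd3 missed the threshold in both lines with the culture (-0.64 in A0, adjusted p = 0.277, and -0.30 in A1, adjusted p = 0.568) and without it (-0.78, adjusted p = 0.0622, and -0.42, adjusted p = 0.0554).

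In A0, 2 members were higher and 4 lower than in stationary CHO-S, where 20.7% and 19.3% of all genes were, or 40.0% in all. Without the culture it was 3 and 4, where 28.0% and 23.8% were, or 51.8% in all. In A1, 1 was higher and 2 were lower, where 18.2% and 16.6% were, or 34.8% in all. Without the culture it was 2 and 4, where 29.9% and 27.5% were, or 57.4% in all.

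Ordered by group mean, Myc ran from stationary CHO-S (81.1 CPM ± 40.8, SD, n = 3, or 105 CPM without culture 1) and exponential CHO-S (86.6 CPM ± 5.30, n = 3) through exponential A0 (109.6 CPM ± 14.7, n = 4) and exponential A1 (158 CPM ± 20.8, n = 3) to stationary A0 (218 CPM ± 22.8, n = 4) and stationary A1 (253 CPM ± 17.1, n = 3). The neighbours at the low end, stationary and exponential CHO-S, and those at the high end, stationary A0 and A1, did not pass the test against each other, although the CHO-S phases did without stationary culture 1. For Mxd4 the producing lines lay below CHO-S, and the order ran from exponential A0 (7.43 CPM ± 2.08, n = 4) and exponential A1 (10.9 CPM ± 0.114, n = 3) through stationary A0 (12.1 CPM ± 3.56, n = 4) and stationary A1 (25.4 CPM ± 2.90, n = 3) to CHO-S at 31.6 CPM ± 4.36 (n = 3) and 32.8 CPM ± 2.29 (n = 3). Levels were not compared between genes, because the counts are not scaled by transcript length.

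Of 5 other genes of the extended network, 2 rose in A0 and 2 in A1, where 17.7% and 15.6% of all genes rose. In CHO-S none of the 5 passed the test, or 1 fell without stationary culture 1, where 24.7% of all genes fell. Mycl, the third Myc gene, rose in A0 with a log2 fold change of 1.67 (SE 0.45, adjusted p = 0.00742), but from 0.202 to 0.671 CPM on average. Mlxipl, the second Mondo gene, rose in A1 by 1.39 (adjusted p = 0.027) from 0.374 to 0.925 CPM. Mga, a large Max partner, averaged 53.7 and 54.2 CPM at the A0 phases, with a change of 0.0033 (adjusted p = 0.999). Mycbp changed by -0.22 in A0 (adjusted p = 0.114), and Mycbp2, a ubiquitin ligase that binds Myc, rose in A0 by 0.55 (adjusted p = 0.00158) and in A1 by 0.28 (adjusted p = 0.000488).

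Targets that Myc is known to activate mostly fell where Myc RNA rose. Of 28 such genes tested in A0, 4 rose and 19 fell (median log2 fold change -0.415), and in A1 1 rose and 21 fell (median -0.36). Over all genes 17.7% rose and 20.1% fell in A0, and 15.6% and 17.8% in A1. In CHO-S 2 rose and 15 fell (median -0.712), or 3 and 24 without stationary culture 1 (median -0.707), where 6.81% of all genes rose and 6.48% fell, or 23.1% and 24.7% without that culture. Ppat, an enzyme of purine synthesis, fell by 1.08 on the log2 scale in A0 (adjusted p = 1.22e-05) and by 0.59 in A1 (adjusted p = 2.03e-06). Eif4e, which binds the mRNA cap in translation, fell by 0.89 in A0 (adjusted p = 0.000989) and by 0.28 in A1 (adjusted p = 0.000402). Tfrc, the transferrin receptor, and Nop16, a ribosome assembly factor, rose in A0, by 0.71 (adjusted p = 3.28e-05) and 0.67 (adjusted p = 0.000103), and in A1 they stood at 0.15 (adjusted p = 0.141) and 0.037 (adjusted p = 0.754). The list holds genes of growth and nucleotide synthesis that also move with the cell cycle, and the part of the fall in cell cycle genes in these counts was not tested.

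Of 7 targets that Myc is known to repress, 2 rose and 2 fell in A0, against 17.7% and 20.1% of all genes. Of the 6 tested in the other lines, 3 rose and 2 fell in A1, against 15.6% and 17.8%, and 2 rose and 2 fell in CHO-S, against 6.81% and 6.48%, or 3 and 2 without stationary culture 1, against 23.1% and 24.7%. Gadd45a, a stress-induced cell cycle inhibitor, rose by 3.40 on the log2 scale in A0 (SE 0.13, adjusted p = 1.14e-10), from 39.4 to 419 CPM on average. It rose by 1.48 in A1 (adjusted p = 5e-15) and by 1.91 in CHO-S (adjusted p = 0.0205), or 1.33 without stationary culture 1 (adjusted p = 4.68e-33). Thbs1, an anti-angiogenic matrix protein, rose by 0.69 in A0 (adjusted p = 9.26e-05) and 0.93 in A1 (adjusted p = 4.96e-09), and in CHO-S it fell by 1.04 (adjusted p = 0.00419), or by 1.02 without stationary culture 1 (adjusted p = 1.35e-30). Cdkn1b, an inhibitor of cyclin-dependent kinases, fell by 0.65 in A0 (adjusted p = 0.000533) and stood at 0.18 in A1 (adjusted p = 0.174).

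Of 4 targets of Mlx and its Mondo partners tested, 2 rose in A0, 2 in A1 and 3 in CHO-S, or 4 in CHO-S without stationary culture 1. Of all genes, 17.7%, 15.6% and 6.81% rose in the 3 lines, or 23.1% in CHO-S without that culture. Txnip, which blocks glucose uptake and is the best known Mondo target, rose in all 3 lines. Its log2 fold change was 1.27 in A0 (adjusted p = 5.93e-07), 0.57 in A1 (adjusted p = 2.06e-06) and 2.27 in CHO-S (adjusted p = 0.00287), or 2.46 without stationary culture 1 (adjusted p = 7.42e-61). Mlxip RNA fell in A0 and did not pass the test in the other lines, so the sign for Txnip and for Mlxip differed in A0. Hk2, a hexokinase, rose by 0.47 in A0 (adjusted p = 0.0016) and stood at -0.023 in A1 (adjusted p = 0.879). Pfkfb3, which drives glycolysis, rose by 0.24 in A1 (adjusted p = 0.0026) and stood at 0.12 in A0 (adjusted p = 0.426).

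Among 11 genes that control the stability of Myc protein, 6 fell in A0 (median -0.294) and 7 in A1 (median -0.28), against 20.1% and 17.8% of all genes, and none rose. In CHO-S 5 fell, against 6.48%, or 8 fell and 1 rose without stationary culture 1, against 24.7% and 23.1%. Plk1, a mitotic kinase, fell by 1.58 in A0 (adjusted p = 8.89e-07) and by 0.79 in A1 (adjusted p = 1.03e-11). Cip2a, which protects Myc from dephosphorylation, fell by 1.16 in A0 (adjusted p = 1.35e-05) and by 0.80 in A1 (adjusted p = 2.53e-09). Of 12 coactivators, 1 rose and 6 fell in A0, and 2 rose and 7 fell in A1. In CHO-S 3 of these coactivators fell, or 8 without stationary culture 1, and the shares of all genes are those just given, with 17.7% rising in A0 and 15.6% in A1. Actl6a, a chromatin remodelling subunit, fell by 0.59 in A0 (adjusted p = 0.000133), Cdk9, the elongation kinase, fell by 0.54 (adjusted p = 0.000633), and Zbtb17, the Myc partner in repression also called Miz1, rose by 0.48 (adjusted p = 0.00148).

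Of 7 corepressor genes that Mxd and Mnt use, 4 fell in A0 (median -0.535). In A1, 1 rose and 5 fell (median -0.32). In CHO-S none passed the edgeR test, with 1 at an unadjusted p under 0.05, and 3 rose and 3 fell without stationary culture 1. The falls compare with 20.1% of all genes in A0, 17.8% in A1 and 24.7% in CHO-S without that culture, and the rises with 15.6% in A1 and 23.1% in CHO-S without it. Hdac2, a histone deacetylase, fell by 0.75 in A0 (adjusted p = 2.51e-05) and by 0.37 in A1 (adjusted p = 5.86e-06), and in CHO-S it stood at -0.010 (adjusted p = 0.985), or fell by 0.46 without stationary culture 1 (adjusted p = 5.41e-14). These lists are described by their counts, and no test of a list as a whole was made.

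**Figure D4:**
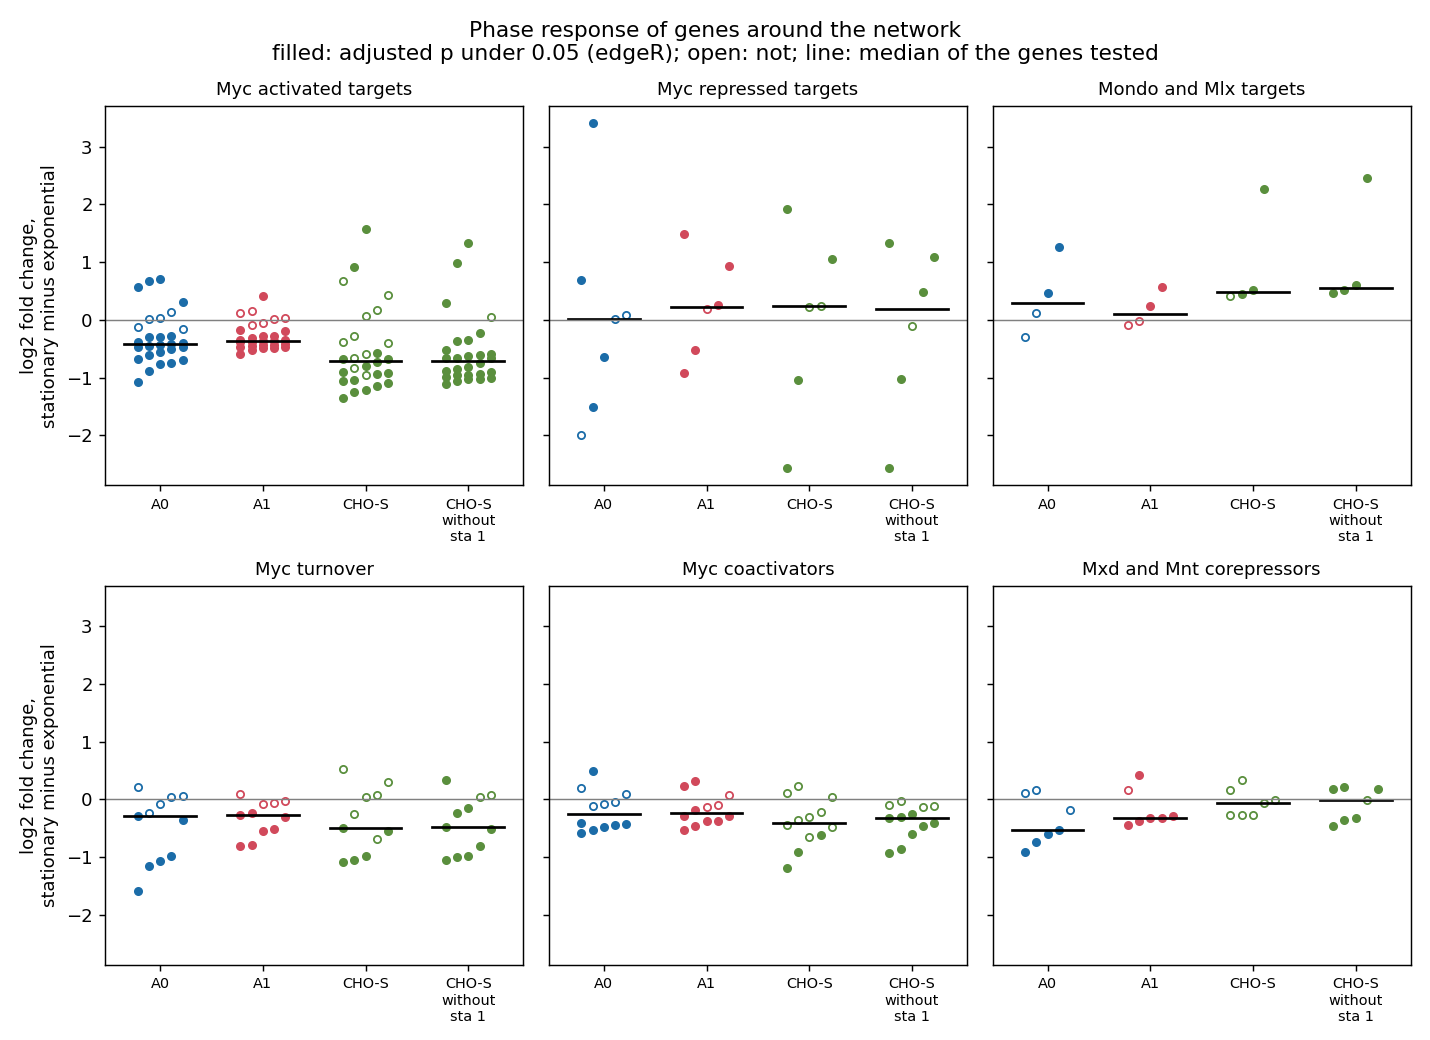
Phase response (log2 fold change, stationary minus exponential) of the tested genes of 6 lists around the network, in A0, A1, CHO-S and CHO-S without stationary culture 1. Each point is a gene, filled where the adjusted p was under 0.05, and the black line is the median, which for the activated Myc targets lies at -0.415 in A0 and -0.36 in A1.

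The genes whose log2(CPM + 1) was most like that of Myc over the 20 cultures, among 10587 genes with at least 5 CPM on average, were LOC100758352 (Pearson r = 0.969), LOC100772859 (0.963), LOC100761464 (0.958), Arl15 (0.954) and Mars, the methionyl-tRNA synthetase (0.953). For Mxd1, the other member with the largest response in A0, they were Cpt1a, which carries fatty acids into mitochondria (0.943), Wdr35 (0.938), Dixdc1 (0.938), Neurl1b (0.931) and Fubp3 (0.928). These values describe points that share line and phase. Within groups the correlations with Myc were 0.841 to 0.908, and those with Mxd1 were 0.475 to 0.739. Over the 19 cultures without CHO-S stationary culture 1, the correlations with Myc were 0.922 to 0.985, but within groups they were -0.144 to 0.316 for 4 of these genes and 0.901 for LOC100758352. Those with Mxd1 were 0.929 to 0.944, and 0.439 to 0.735 within groups. These values without the culture were added after the others had been seen.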

How the data were processed

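Reads of 24 libraries were aligned by the authors with STAR 2.5.4b to the Chinese hamster genome and counted per gene with HTSeq 0.7.2, per the submitters' processing notes. The strand setting is not given in the sources used here, so overlapping and antisense genes are uncertain. The deposited values are unnormalised counts, and reads that align to more than 1 place are not counted. Neither library sizes nor tests included the 5 summary lines that HTSeq writes. A0 exponential libraries of one culture number were summed, which gave 20 cultures.

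The quasi-likelihood test of edgeR 4.0.16 under R 4.3.3, two-sided and after TMM scaling, was run on the groups compared for genes whose counts varied and reached 1 in 2 or more cultures, with Benjamini-Hochberg adjustment over all genes tested and a threshold of 0.05. Interactions came from 1 fit over all 6 groups. The procedure was tested on simulated data. Figures were drawn with matplotlib 3.10.9. All members are described, and from each other list the genes past the threshold with the 2 largest rises and 2 largest falls in A0 at 5 CPM or more on average, with all genes of the lists of other network genes and Mondo targets. A gene that this rule names is not reported here. The members and lists were chosen with earlier results of these data known. Of 97 listed genes, 90 were found in the table, 2 by gene ID or older name. Names looked up by ID come from RefSeq for CriGri-PICRH-1.0. The counts were made on another build, and for that reason coordinates are left out. DESeq2 1.42.0 served as an alternative.

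Same-numbered A0 samples deviated together across phases (correlations 0.435, 0.32, 0.274 and 0.189), and the A0 numbers were therefore taken to pair the phases. For A1 (-0.146 to 0.186) and CHO-S (-0.00738 to 0.124) they were not. Depth was 1038026 to 14652646 counts per library, and intervals cover the spread between these samples only. After summing, exponential A0 cultures held 23065838 to 26584337 counts and stationary A0 cultures 10727892 to 12913264. In A0, depth and libraries per culture thus differ with phase. With the first A0 libraries only, no member result lost its call, 4 gained one and 2 changed sign.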

Additional observations from a re-analysis of the deposited data

Results flagged for a closer look

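Between A0 and CHO-S the phase responses of 2 of the 9 members tested differed by an interaction test. Of all 21358 genes tested, 14.7% were called, or 19.4% without CHO-S stationary culture 1. The Myc response was 0.973 larger in A0 on the log2 scale (adjusted p = 0.0129), and 0.73 larger without CHO-S stationary culture 1. With A0 cultures 1 and 2 alone the difference was 0.77 and missed the threshold (adjusted p = 0.138). The Mlxip response differed by -0.63 (adjusted p = 0.0183), and without CHO-S culture 2 by -0.61, which missed the threshold (adjusted p = 0.0914).

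Between A1 and CHO-S the Mxd4 response differed by 1.23 (adjusted p = 0.00834), where 5.49% of all genes were called. Without A1 culture 2 it was 1.17 (adjusted p = 0.0594) and without CHO-S culture 2 it was 1.19 (adjusted p = 0.0602), and both missed the threshold. In 18 member groups of 4 cultures, none held a culture that stood apart by Dixon's criterion.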

How the results depend on the processing

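Of 1548 recalculated member results, 1386 kept their direction and their side of the threshold, 53 lost the call, 64 gained one and 45 changed sign. None of the 44 results past the threshold changed sign, and 26 of them kept the call under every alternative. The cause of the changes below was not tested.

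The number of members past the threshold moved as follows. The share of all genes called was worked out again only without CHO-S stationary culture 1. There it moved too, from 13.3% to 47.7% for the CHO-S phase response and from 34.8% to 57.4% for A1 against CHO-S at stationary phase. It went from 4.56% to 11.6% for the A1 and A0 interaction and from 5.49% to 10.8% for the A1 and CHO-S interaction. The counts below are therefore not read as a result about the members. Single cultures were left out by number, which removed both phases of that number where the fit held both. Leaving out 1 culture number at a time gave 2 to 5 for A1 against A0 at exponential phase (4 with all cultures), 2 to 6 for A1 against CHO-S at stationary phase (3), 1 to 3 for the A0 and CHO-S interaction (2), 0 to 3 for the A1 and A0 interaction (0), 0 to 2 for the A1 and CHO-S interaction (1), 2 to 3 for the A1 phase response (4) and 0 to 5 for the CHO-S phase response (0). The highest of these for CHO-S came without CHO-S culture 1, and leaving out its stationary library alone, chosen after seeing the data, gave 5 for the phase response, 6 for A1 against CHO-S at stationary phase, and 2 each for the A1 and A0 and the A1 and CHO-S interactions. With A0 cultures 1 and 2 only, the counts were 3 for A0 against CHO-S at stationary phase (6 with all cultures), 7 for A1 against A0 at stationary phase (4) and 2 for the A1 and A0 interaction (0). With A0 cultures 3 and 4 only, it was 3 for A0 against CHO-S at stationary phase. With the first A0 libraries only, it was 4 for the A0 and CHO-S interaction and 1 for the A1 and A0 interaction. DESeq2 gave 1 for the A1 and A0 interaction, 2 for the A1 and CHO-S interaction and 1 for the CHO-S phase response, and the filterByExpr filter gave 1, 2 and 2. With all 6 groups in 1 fit, it was 2 for the A1 and 1 for the CHO-S phase response.

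With a replicate block the A1 and A0 interaction count was 1 (Mxd1, 1.15, adjusted p = 0.0263). For interactions the block paired the phases by number in every line, although the numbers of A1 and CHO-S were not taken to be pairs. In A0, whose numbers were taken to pair the phases, the block added the call of Mxd3 and changed no other phase call. In the other comparisons it added calls for Max (A1 minus A0, exponential phase, -0.25, adjusted p = 0.0445), Myc (A1 minus A0, stationary phase, 0.25, adjusted p = 0.0206) and Mxd4 (A0 minus CHO-S interaction, 0.71, adjusted p = 0.0131). For A1 against A0 the block matches equal numbers of different lines. Their deviations correlated at -0.0594 to 0.0557 at exponential and -0.145 to 0.0738 at stationary phase, so the numbers gave no pairing there. Same-numbered samples did not all correlate best with each other in any line: in A0, numbers 3 and 4 matched each other best.

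The sign changes were among values that missed the threshold. The Mlx phase response in A0 was 0.13 with cultures 1 and 2 only, 0.0019 with the first libraries, 0.016 with DESeq2 size factors, 0.015 with DESeq2, 0.027 with filterByExpr and -0.058 to 0.057 without single cultures. The Mxd4 phase response in CHO-S was 0.00069 with all 6 groups in 1 fit, 0.018 with DESeq2 size factors, 0.024 with DESeq2, 0.035 with filterByExpr, -0.16 to 0.052 without single cultures, and 0.044 without stationary culture 1. The Myc phase response in CHO-S was 0.021 with all 6 groups in 1 fit, 0.0077 with filterByExpr, and -0.25 to 0.28 without single cultures or libraries. Without single cultures or libraries, the Max phase response in CHO-S was -0.19 to 0.033 and that of Mlxip was -0.0089 to 0.18. In A1, that of Mxd1 was -0.072 to 0.20 and that of Mxd3 was -0.21 to 0.31. For the A0 and CHO-S interaction, Mxd3 was 0.43 with A0 cultures 3 and 4 only, 0.088 with the first libraries, 0.057 with DESeq2, 0.032 with the replicate block and -0.33 to 0.23 without single cultures, Max was -0.16 to 0.024 without single cultures or libraries, and Mlx was 0.084 with A0 cultures 1 and 2 only. For A1 against A0 at stationary phase, Mlxip was 0.13 with A0 cultures 1 and 2 only, 0.026 with the replicate block and -0.13 to 0.023 without single cultures, and Mxd3 was -0.042 with A0 cultures 3 and 4 only. For A1 against CHO-S at stationary phase, Mnt was -0.0059 with filterByExpr and -0.015 to 0.053 without single cultures. Mxi1 was 0.065 for A1 against A0 at exponential phase with A0 cultures 1 and 2 only, and 0.032 for the A1 and A0 interaction with A0 cultures 3 and 4 only.

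Depth limits Mxd1 and Mxd3 most, whose stationary cultures hold as few as 3 and 0 counts.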
